A study of Mus musculus with 15 samples.

Results

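The 10 imprinted genes Rtl1, Dlk1, Igf2, H19, Peg3, Mest, Igf2r, Grb10, Plagl1 and Ndn were followed in irradiated mouse fibroblasts. They were taken by symbol from 19069 genes in the RNA files and from 21881 promoter windows in the chromatin tables. The set was chosen by a measured value, the FAIRE difference of the promoter window listed for Rtl1, the lowest of all promoters. That value is therefore a description and is not tested. All 10 genes had a promoter window, and 9 had an RNA row with enough counts for the test. H19 had no RNA row, so its RNA was not analysed here.

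The irradiated cells were NIH3T3, an established line of mouse embryonic fibroblasts, sampled 6 h after 80 J/m2 of UV-C light at 254 nm, which joins neighbouring pyrimidines in DNA. They were set against the same line left untreated. Irradiated cells had been washed and then given fresh medium with DMSO, and the labels do not say that untreated cells were handled in the same way, so the light and the handling cannot be told apart. RNA-seq had 3 UV and 3 untreated libraries, with 14211528 to 22032701 counts over genes. FAIRE-seq, which recovers open chromatin, and ChIP-seq for H3K27ac, the acetylation of histone H3 found at active promoters and enhancers, had 2 UV and 2 untreated samples each. The chromatin tables give 1 pool per condition and 1 input, so they carry no replicate error, and the pool with DMSO in its header was taken as the irradiated one. Summed fibroblast markers stood at 22300 to 30400 CPM (counts scaled to library size) in UV libraries and 19800 to 23700 CPM in untreated libraries. Epithelial, leukocyte, endothelial, muscle and pluripotent markers each summed to at most 19.6 CPM in any library. Of these, only the pluripotent and trophoblast markers did not overlap, at 4.15 to 5 CPM in UV libraries and 1.52 to 3.72 CPM in untreated libraries, and their part in the results was not tested. UV replicate 1 differed most from its group, with 17607 genes detected against 18350 to 18787 in the other 5 libraries.

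An imprinted gene is transcribed mainly from the copy inherited from a single parent, because DNA methylation laid down in egg or sperm marks the parental copies at imprinting control regions. Many of these genes regulate fetal growth and are clustered, with protein-coding genes and non-coding RNAs of a cluster often read from opposite parental copies. Rtl1 and Dlk1 lie in the Dlk1-Dio3 cluster, where both are read from the paternal copy and the long RNAs Meg3, Rian and Mirg from the maternal copy. Igf2 (paternal) and H19 (maternal) form another cluster. The reads here were not separated by parental copy, so every value is a sum over both.

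The Rtl1 window had the same FAIRE and input reads as that of Mir3071 and H3K27ac reads within 2 of it in each pool, and is treated as the same window. Mir3071 is a microRNA gene on the same strand as Rtl1 in the Dlk1-Dio3 cluster. On the other strand lies Mir136, one of the maternal microRNAs that are antisense to Rtl1 in the mouse and can direct cleavage of its transcript. The Mir136 window is another one, with 8 FAIRE reads in the UV pool and 16 in the untreated pool, a difference of -0.28. Mir3071 is shown because it shares the window of the strongest FAIRE loss, and Mir136 because it lies opposite Mir3071. The mature sequences of both (RefSeq, GRCm38.p6) follow, with the seed, bases 2 to 8, in capitals.
mmu-miR-3071-5p, chr12:109595363-109595384, minus strand: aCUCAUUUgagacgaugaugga
mmu-miR-3071-3p, chr12:109595329-109595350, minus strand: aUCAUCAAaacaaauggagucc
mmu-miR-136-5p, chr12:109595331-109595352, plus strand: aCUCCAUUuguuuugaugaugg
mmu-miR-136-3p, chr12:109595366-109595387, plus strand: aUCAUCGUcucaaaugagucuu
The reverse complement of the whole 62-base Mir136 hairpin lies at bases 10 to 71 of the 80-base Mir3071 hairpin. The 4 seeds differ from each other, and no other mature microRNA name in the table has any of them.

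Promoter sequences of 3 genes of the set are shown from RefSeq (GRCm38.p6) as 300 bases around the start. RNA of Dlk1 rose, and Igf2r and Plagl1 had the highest H3K27ac differences of the set, neither of them a gain. Capitals mark matches, on either strand, to the motifs searched. These were the AP-1 motif TGANTCA, the core of the cyclic AMP response element (CRE core) written TGACGT, the GC box GGGCGG, the TATA box as TATAAA, a part of the CTCF motif, CCACNAG, and the motif of ZFP57, a factor that binds methylated imprinting control regions, TGCCGC.
Dlk1, chr12:109452573-109452872, plus strand: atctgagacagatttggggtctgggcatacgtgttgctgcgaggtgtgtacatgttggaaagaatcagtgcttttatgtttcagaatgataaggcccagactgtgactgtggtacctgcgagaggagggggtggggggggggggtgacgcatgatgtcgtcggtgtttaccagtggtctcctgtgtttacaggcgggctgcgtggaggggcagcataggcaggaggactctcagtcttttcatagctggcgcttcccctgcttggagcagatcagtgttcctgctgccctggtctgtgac
Igf2r, chr17:12769657-12769956, minus strand: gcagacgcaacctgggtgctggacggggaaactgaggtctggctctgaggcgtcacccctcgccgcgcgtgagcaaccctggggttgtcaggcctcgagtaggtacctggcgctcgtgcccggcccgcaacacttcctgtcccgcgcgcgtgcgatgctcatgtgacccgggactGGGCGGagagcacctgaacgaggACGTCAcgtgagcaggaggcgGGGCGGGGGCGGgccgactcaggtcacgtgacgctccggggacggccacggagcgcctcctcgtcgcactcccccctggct
Plagl1, chr10:13090582-13090881, plus strand: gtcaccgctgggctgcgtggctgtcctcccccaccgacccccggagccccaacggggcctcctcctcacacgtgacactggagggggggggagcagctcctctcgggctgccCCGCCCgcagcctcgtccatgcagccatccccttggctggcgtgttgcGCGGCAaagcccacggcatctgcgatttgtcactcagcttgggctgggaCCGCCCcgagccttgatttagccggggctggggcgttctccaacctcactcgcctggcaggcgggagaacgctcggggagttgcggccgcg
The Dlk1 stretch held none of these motifs and 9 CpG. Igf2r held 3 GC boxes, of which a pair are adjacent, and 1 CRE core among 34 CpG. Plagl1 held 2 GC boxes and 1 ZFP57 motif among 26 CpG. Of the 32851 promoters in the table, 7.81% held the AP-1 motif, 7.51% the CRE core, 35.7% the GC box, 13.6% the TATA box, 15.3% the CTCF part and 11.6% the ZFP57 motif, and the median promoter had 7 CpG. Promoters were found for 8 of the 10 genes, at 14 starts, and none was found for Rtl1 or H19. No start of any of the 8 held an AP-1 or TATA match.

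Rtl1 RNA fell, Dlk1 and Igf2 RNA rose, and the other 6 genes tested did not pass the threshold. The question was whether transcript levels 6 h after UV differed from those of untreated cells by more than the spread between libraries, by edgeR's quasi-likelihood test with Benjamini-Hochberg adjustment over 14925 genes and a threshold of 0.05. Over all genes tested, 7.7% were called higher and 12.4% lower, against 2 and 1 of the 9 genes here. The groups did not overlap for 4 of the 9, Rtl1, Dlk1, Igf2 and Igf2r, against 33.9% of all genes tested. In bulk RNA, a change in the number of cells that carry a transcript and a change of RNA per cell cannot be told apart.

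**Figure D1:**
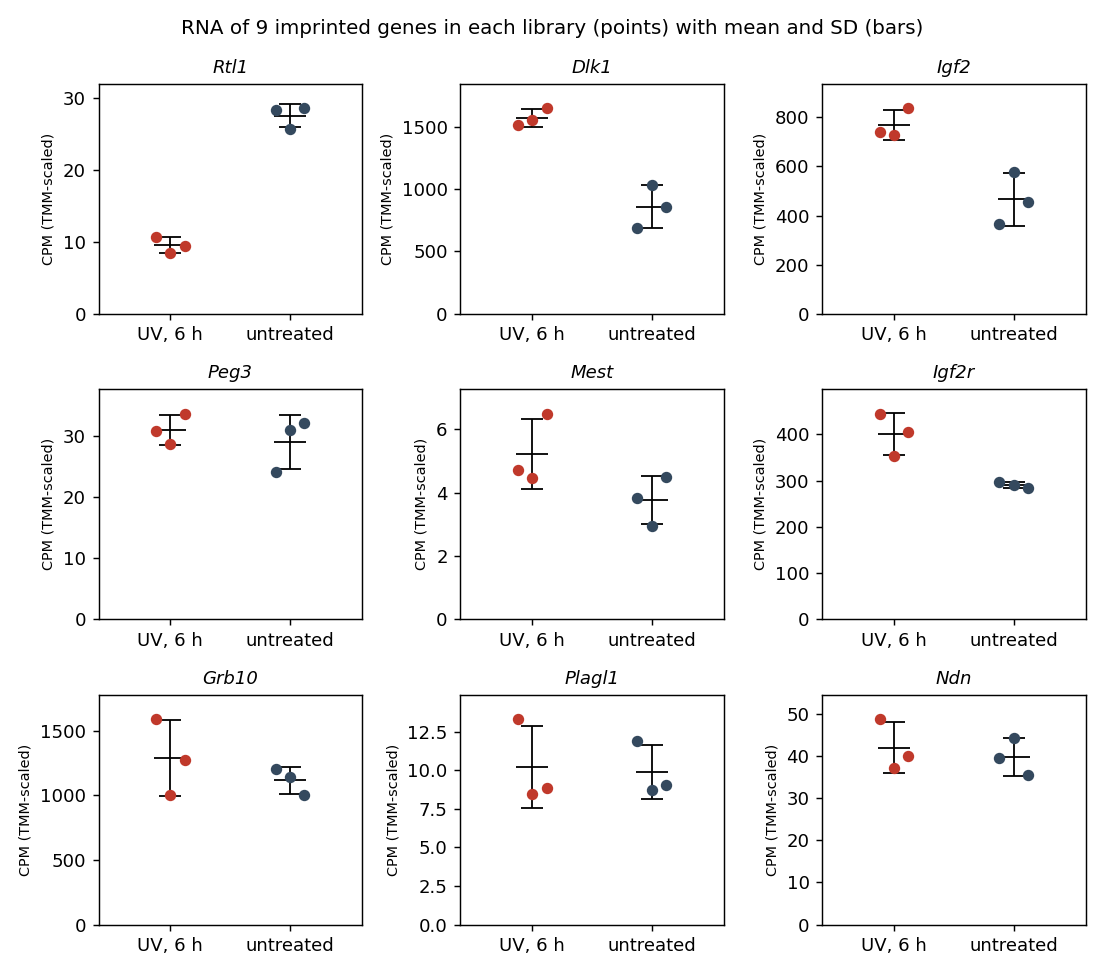
RNA level of the 9 genes with an RNA row, in CPM with TMM scaling, in 3 UV and 3 untreated libraries. Each point is a library and the bars are the mean and SD. The groups do not overlap for Rtl1 (UV lower) and for Dlk1, Igf2 and Igf2r (UV higher), and they overlap for the other 5 genes.

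Rtl1 encodes a Gag-Pol-like protein descended from a Sushi-ichi retrotransposon and is needed for the capillaries of the mouse placenta and for muscle. It had 10.6, 8.49 and 9.38 CPM in UV libraries 1 to 3, against 28.4, 25.7 and 28.6 CPM in untreated libraries 1 to 3. Every UV library was below every untreated one, from 172, 126 and 162 counts in UV libraries and 547, 565 and 746 counts in untreated libraries. The log2 fold change was -1.53 ± 0.18 (SE, adjusted p = 9.74e-06 by edgeR's quasi-likelihood test). It stayed between -1.78 and -1.39 under 12 alternative settings, all of which kept the call. The strand of counting is not stated, so reads of Rtl1 and of the antisense microRNA precursor over it cannot be told apart.

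Dlk1 encodes a membrane protein with EGF-like repeats that acts as a non-canonical Notch ligand and holds back fat cell differentiation. It had 1511, 1557 and 1649 CPM in UV libraries, against 688, 1032 and 860 CPM in untreated libraries. UV libraries were close together and all above the untreated ones, which spread more widely. The log2 fold change was 0.87 ± 0.21 (SE, edgeR adjusted p = 0.00612). Without UV replicate 3 it was 0.83 with an adjusted p of 0.0686, in a range of 0.000477 to 0.0686 over 12 alternatives.

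Igf2 encodes insulin-like growth factor 2, a fetal growth factor that signals through the IGF1 and insulin receptors. It had 739, 727 and 837 CPM in UV libraries, against 364, 578 and 454 CPM in untreated libraries. The log2 fold change was 0.72 ± 0.22 (SE, edgeR adjusted p = 0.0244). The call was lost under 3 of 12 alternatives, with log2 fold changes of 0.50 for scaling by library totals, 0.72 with no low-count filter and 0.65 without UV replicate 3. Their adjusted p-values were 0.0663, 0.0825 and 0.205, in a range over all alternatives of 0.00688 to 0.205.

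The receptor and the adaptor that oppose this growth signal did not pass the test. Igf2r encodes the mannose-6-phosphate receptor, which takes IGF2 into the cell for degradation. It had 445, 353 and 406 CPM in UV libraries and 297, 291 and 283 CPM in untreated libraries. UV libraries all lay above untreated ones, but the log2 fold change of 0.47 ± 0.20 (SE) had an edgeR adjusted p of 0.117. Under 4 of the 12 alternatives Igf2r was called higher: the filter of at least 1 CPM in 3 libraries (adjusted p = 0.0374) and the fits without untreated replicate 1, 2 or 3 (0.0448, 0.0313 and 0.0356), in a range of 0.0313 to 0.488. Grb10, an adaptor that dampens insulin and IGF1 receptor signalling, had 1589, 1003 and 1277 CPM in UV libraries and 1206, 1140 and 1004 CPM in untreated libraries. Its groups overlapped, with a log2 fold change of 0.21 ± 0.22 (SE, edgeR adjusted p = 0.657).

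The nuclear regulators of the set and Mest did not pass the test either. Plagl1, a zinc finger transcription factor that controls a network of imprinted genes, had 13.3, 8.49 and 8.86 CPM in UV libraries and 11.9, 8.74 and 9.07 CPM in untreated libraries. In each group replicate 1 was the highest. Peg3, a zinc finger protein of the paternal copy, had 30.8, 28.8 and 33.7 CPM in UV libraries and 24.0, 31.0 and 32.1 CPM in untreated libraries. Ndn encodes necdin, a MAGE family protein that binds E2F1, and had 48.6, 37.1 and 40.02 CPM in UV libraries and 39.5, 44.3 and 35.4 CPM in untreated libraries. Groups overlapped for all 3, with edgeR adjusted p-values of 0.966, 0.867 and 0.911 for Plagl1, Peg3 and Ndn. Mest, a protein of the alpha/beta hydrolase fold, had 4.70, 4.45 and 6.49 CPM in UV libraries and 3.84, 2.96 and 4.48 CPM in untreated libraries, where the groups overlapped. Its log2 fold change was 0.47 ± 0.28 (SE, edgeR adjusted p = 0.303).

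The authors' deposited table of their own RNA comparison, which holds 2068 genes with adjusted p-values up to 0.0999, lists 3 of the 10 genes. Its log2 fold changes are -1.51 for Rtl1, 0.88 for Dlk1 and 0.73 for Igf2, with adjusted p-values of 1.37e-05, 0.00879 and 0.0393 in the authors' deposited table.

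In chromatin, the window listed for both Rtl1 and Mir3071 lost FAIRE and H3K27ac reads, and the Igf2 window lost H3K27ac reads. No window of the set gained either by the same measure. The position of the shared window is not given, so its loss cannot be assigned to the start of Rtl1 or to the microRNA. Enrichment is the authors' log2 ratio of reads to scaled input, with 16 reads added to both, in a window of 1000 bp. A loss or gain means that UV minus untreated enrichment reached 1 in size. The FAIRE pools held 637080 reads over promoters for UV and 1032412 for untreated cells, and the H3K27ac pools 4447997 and 4015279, so read ratios are scaled by these totals and their 95% intervals cover counting error only. In FAIRE, 1.05% of all promoters were losses and 0.00457% gains, against 1 and 0 of the 10, and the rule itself chose that 1. In H3K27ac, 3.43% were losses and 2.38% gains, against 2 and 0 of the 10. Of these 2, Rtl1 was in the set for its FAIRE loss, and the other was Igf2. Over all promoters, 21% of the FAIRE losses were H3K27ac losses too.

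**Figure D2:**
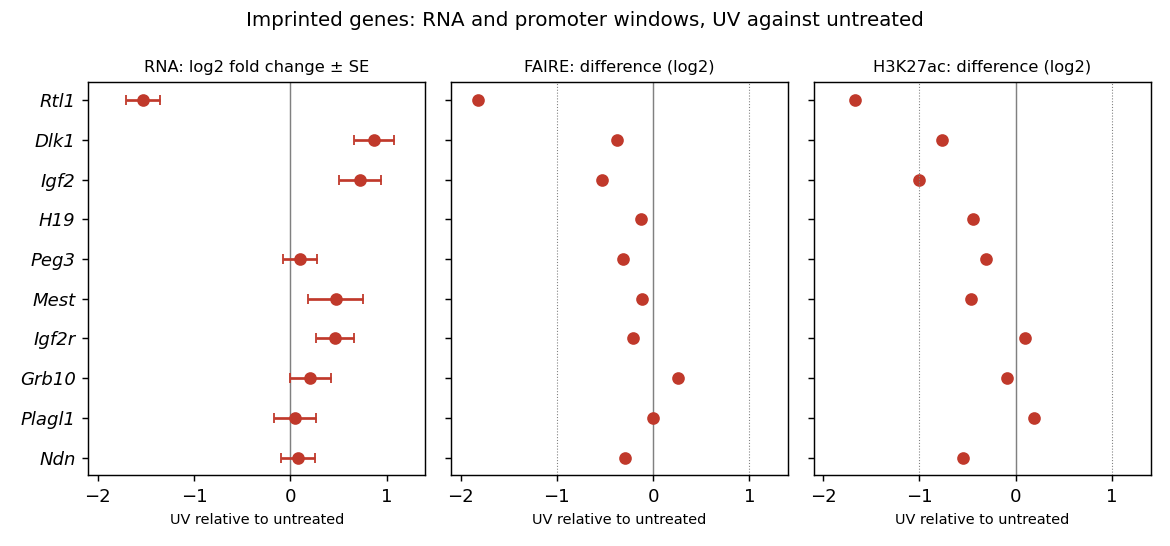
UV relative to untreated for the 10 genes: RNA log2 fold change with its SE (left; 3 libraries each, no RNA value for H19), and the difference in log2 enrichment of the promoter window in FAIRE (middle) and H3K27ac (right) from 1 pool per condition. Dotted lines mark a difference of 1. Rtl1 lies far to the left in all 3 panels, while Dlk1 and Igf2 lie to the right in RNA and to the left in both chromatin panels.

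The Rtl1 window held 6 FAIRE reads in the UV pool and 71 in the untreated pool, with 30 input reads. Its FAIRE enrichment was -0.53 in UV cells, below the input, and 1.28 in untreated cells, a difference of -1.82. The scaled read ratio of UV to untreated was 0.137. The next lowest FAIRE promoters were Gas1 at -1.62, Cbx6 and Npcd with the same reads at -1.57, Setd8 at -1.53 and Dvl1 at -1.52. Next among the 10 genes was Igf2 at -0.53. The rule fixed that Rtl1 came first.

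H3K27ac at the Rtl1 window had 82 reads in the UV pool and 294 in the untreated pool. Enrichment was 1.39 in UV cells and 3.06 in untreated cells, a difference of -1.67 at rank 81 of 21881 from the lowest, with a scaled read ratio of 0.252 (0.195 to 0.323). Unlike FAIRE, H3K27ac at this window stayed above its input in UV cells. A loss in both assays was found at 48 promoters, 21% of the FAIRE losses and 6.4% of the H3K27ac losses. They include promoters that share a window, and hold 46 distinct sets of FAIRE and input reads. RNA was tested for 44 of these, with 10 called lower, Rtl1 among them, and 4 higher, against 12.4% lower and 7.7% higher over all genes.

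At Dlk1 and Igf2, promoter H3K27ac and RNA differed in opposite directions. The Dlk1 window had 77 H3K27ac reads in the UV pool and 142 in the untreated pool, a difference of -0.77 and a scaled ratio of 0.490 (0.366 to 0.650). Its FAIRE reads were 12 in the UV pool and 24 in the untreated pool, a difference of -0.38. The Igf2 window had 10 H3K27ac reads in the UV pool and 36 in the untreated pool, a difference of -1.01 and a scaled ratio of 0.251 (0.111 to 0.516). This difference lay at the limit for a loss and was -0.99 after centring on the median of all promoters. Its FAIRE reads were 7 in the UV pool and 21 in the untreated pool, a difference of -0.53 whose ratio of 0.540 had an interval from 0.194 to 1.32. RefSeq lists 4 Igf2 starts, 3 for Mest and 2 for Grb10, and the tables give each gene 1 window. Which start each window covers is not given, so the transcripts counted may come from a start outside it.

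H19, the maternal non-coding RNA next to Igf2, had 9 FAIRE reads in the UV pool and 14 in the untreated pool, and 15 H3K27ac reads in the UV pool and 26 in the untreated pool. Its differences were -0.12 and -0.44, with an H3K27ac ratio of 0.521 (0.256 to 1.02), so neither was distinguishable at this depth. Ndn had 21 H3K27ac reads in the UV pool and 38 in the untreated pool, a difference of -0.55 and a ratio of 0.499 (0.278 to 0.872). Peg3 and Mest had H3K27ac differences of -0.31 and -0.47, with intervals of the ratio that include 1.

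Igf2r and Plagl1 had the 2 highest H3K27ac differences of the set. Igf2r held 161 H3K27ac reads in the UV pool and 149 in the untreated pool, a difference of 0.09, and Plagl1 held 101 and 86, a difference of 0.19. The scaled ratios were 0.975 (0.776 to 1.23) for Igf2r and 1.06 (0.787 to 1.43) for Plagl1, with intervals that include 1. Grb10 was near background in both assays, with 18 H3K27ac reads in the UV pool and 20 in the untreated pool, and its FAIRE difference was 0.26. Apart from Rtl1, which the rule chose, 8 of 9 genes were below 0 in FAIRE, against 68.0% of all promoters, but 5 of 9 after centring or with pool totals in place of the input. H19 and Plagl1, at -0.12 and -0.0007, lay above 0 under both of these scalings, as did Mest after centring and Igf2r with pool totals. The sign of these FAIRE differences is therefore not settled. In H3K27ac 8 of the 10 were below 0, against 56.1% of all promoters, and 7 to 9 of the 10 under the other scalings. Apart from Rtl1, 7 of 9 were below 0 in H3K27ac, and 6 to 8 under the other scalings. Shares of all promoters were counted under the authors' scaling alone, for both assays, so counts under the other scalings have none beside them. The median of all 10, Rtl1 included, was -0.46 against -0.01 over all promoters. Reads were few: 6 of the 10 windows held under 30 FAIRE reads in both pools, and 3 held under 30 H3K27ac reads in both.

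Around Rtl1, H3K27ac was lower across most windows of the Dlk1-Dio3 cluster, whereas FAIRE losses there were limited to the window shared by Rtl1 and Mir3071. Of 67 windows from Begain to Dio3, 56 of them of microRNAs, 64 were below 0 in H3K27ac and 12 were losses, with a median of -0.68. Over all promoters, 56.1% were below 0 in H3K27ac and 3.43% were losses. Summed over the 67 windows, H3K27ac held 2312 reads in the UV pool and 4652 in the untreated pool. In FAIRE 48 of the 67 were below 0, with a median of -0.11, and 2 were losses, Rtl1 and Mir3071. The FAIRE count below 0 was near the 68.0% of all promoters, whose median was -0.17, with 1.05% losses. Windows of neighbouring microRNAs overlap and share reads, so they are not independent. The borders were set after the values were seen.

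**Figure D3:**
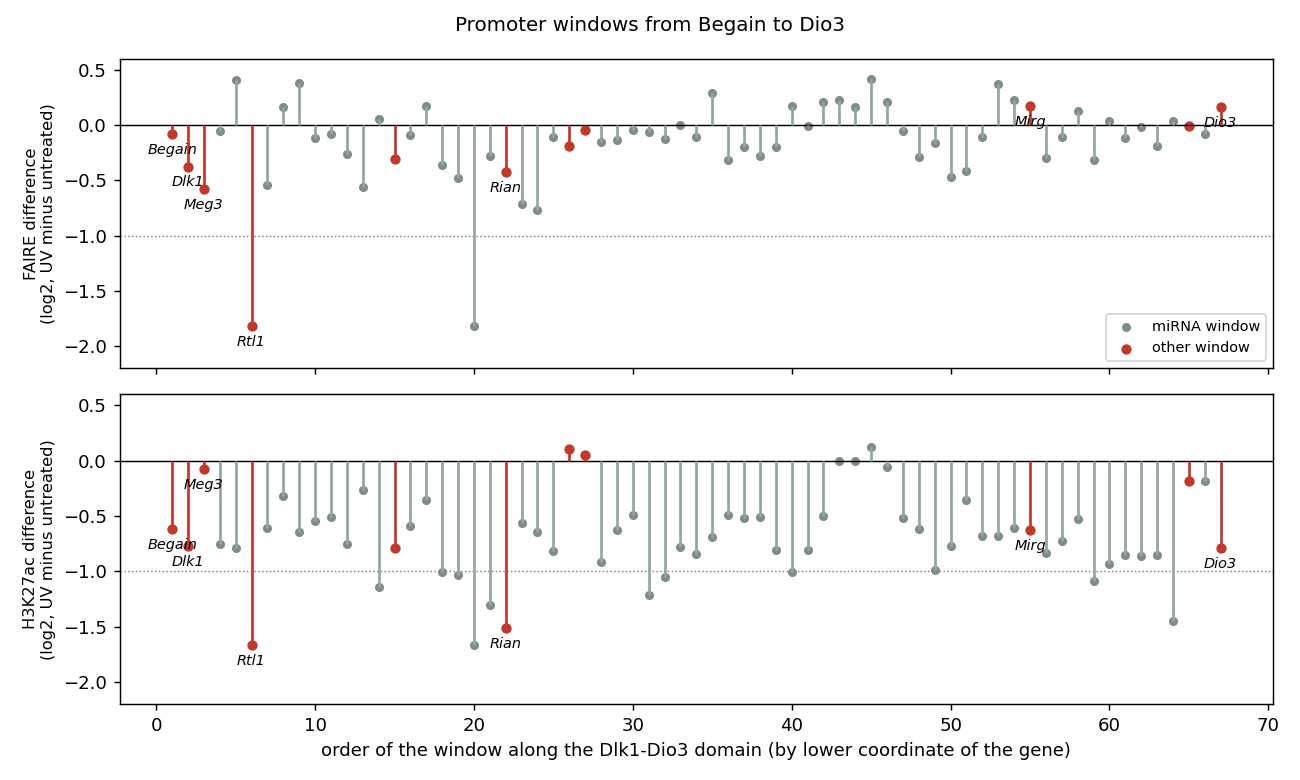
Difference in log2 enrichment, UV minus untreated, for 67 promoter windows from Begain to Dio3, in FAIRE (top) and H3K27ac (bottom), from 1 pool per condition. Windows are ordered by the lower coordinate of the gene, which places Rtl1 apart from Mir3071 although they share a window. Lines at Rtl1 and Mir3071 reach -1.82 in FAIRE, while 64 of the 67 lines point down in H3K27ac.

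The long maternal RNAs of the cluster differed from each other. Meg3, a non-coding RNA at the start of the maternal transcripts, had 209 H3K27ac reads in the UV pool and 220 in the untreated pool, a difference of -0.08. Its FAIRE reads were 29 in the UV pool and 59 in the untreated pool, a difference of -0.58. Rian, a host of small nucleolar RNAs, had 38 H3K27ac reads in the UV pool and 137 in the untreated pool, a difference of -1.51. Mirg, a microRNA host, had 42 and 73, a difference of -0.63. Mir3072, near the far end of the cluster, had 92 H3K27ac reads in the UV pool and 277 in the untreated pool, a difference of -1.45. Among the microRNAs antisense to Rtl1, Mir136 had -1.30, Mir431 -1.14, Mir434 -1.01, Mir433 -0.59 and Mir127 -0.35 in H3K27ac. At the ends of the cluster, Begain had -0.62 and Dio3, the deiodinase that inactivates thyroid hormone, -0.79 from 9 reads in the UV pool and 27 in the untreated pool. Among all 3722 promoters with an untreated H3K27ac enrichment between 0 and 2, 59.3% were below 0, 5.99% were losses and the median was -0.16. Of the 60 windows of the cluster in that range, 57 were below 0, 8 were losses and the median was -0.66.

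The H19-Igf2 region showed a like decrease in H3K27ac, with the larger losses outside the imprinted pair. Of 15 windows from Ctsd to Tspan32, 13 were below 0 and 6 were losses, with 572 reads in the UV pool and 1140 in the untreated pool. Over all promoters, 56.1% were below 0 in H3K27ac and 3.43% were losses. The losses in the region were Tnni2 at -1.82, Lsp1 at -1.73, Syt8 at -1.50, Tnnt3 at -1.27, Mrpl23 at -1.26 and Igf2 at -1.01. Tnni2 and Tnnt3 encode troponins of fast skeletal muscle, Lsp1 an actin-binding protein of leukocytes and Mrpl23 a protein of the mitochondrial ribosome. Ctsd, the lysosomal protease cathepsin D at the border, had 287 H3K27ac reads in the UV pool and 239 in the untreated pool, a difference of 0.24. As at Igf2, RNA of Mrpl23 and Lsp1 was called higher: the log2 fold changes were 0.93 ± 0.17 and 0.62 ± 0.17 (SE, edgeR adjusted p = 0.000745 and 0.0164). The call of Lsp1 was lost without UV replicate 3, at an adjusted p of 0.178, and with no low-count filter, at 0.0701, in a range of 0.00377 to 0.178. In FAIRE 11 of the 15 windows were below 0 and none was a loss. That is near the 68.0% of all promoters below 0 in FAIRE, of which 1.05% were losses.

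**Figure D4:**
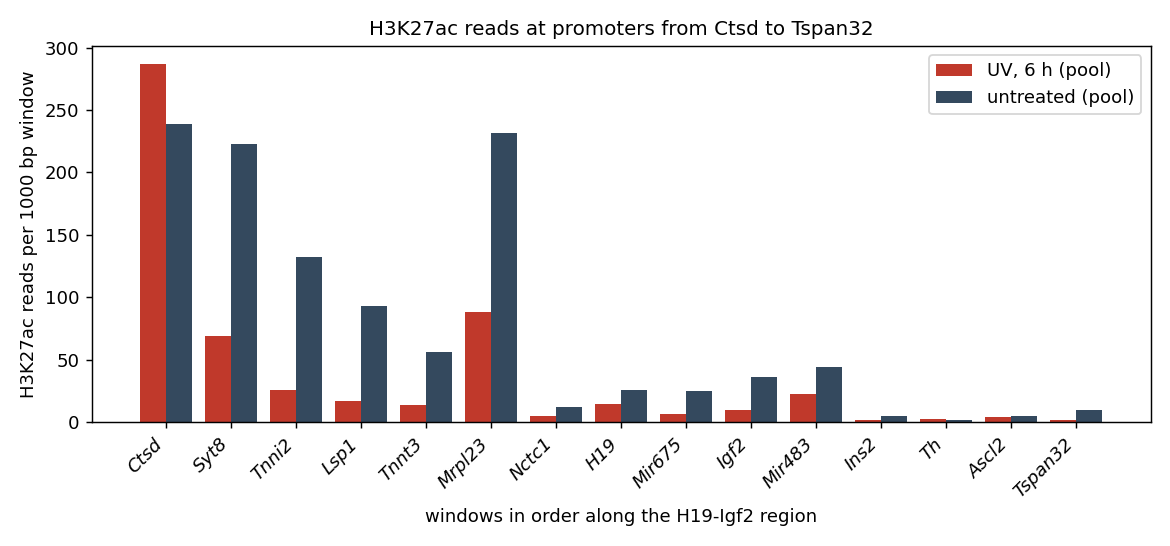
H3K27ac reads per 1000 bp promoter window from Ctsd to Tspan32, in the UV pool and the untreated pool, without replicates and not scaled by depth. Tnni2 held 26 reads in the UV pool and 132 in the untreated pool, and Igf2 held 10 and 36, while Ctsd held more in the UV pool.

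In the clusters of Igf2r, Peg3, Mest, Ndn and Grb10, only Ddc and Gm7367 had a window past a difference of 1. Ddc, beside Grb10, was at -1.01 in H3K27ac from 5 reads in the UV pool and 26 in the untreated pool. Gm7367, near Ndn, was at -1.001 in FAIRE from 98 reads in the UV pool and 238 in the untreated pool. No region around Plagl1 was examined. Airn, the non-coding RNA read antisense through Igf2r on the paternal copy, had 122 H3K27ac reads in the UV pool and 185 in the untreated pool, a difference of -0.55. Usp29, a paternal gene beside Peg3, had -0.60 from 60 reads in the UV pool and 99 in the untreated pool. Copg2, which lies next to Mest, had -0.76 from 207 reads in the UV pool and 360 in the untreated pool. Around Ndn the 24 windows held 2007 H3K27ac reads in the UV pool and 1616 in the untreated pool. These sums are not scaled by depth, and Ube3a alone held 1035 of the UV and 780 of the untreated reads. No window there was an H3K27ac loss or gain, and the median difference was -0.08. The higher windows were Gm7367 at 0.91, from 245 reads in the UV pool and 122 in the untreated pool, Mir344d-2 at 0.89, Mir344b at 0.59 and Ube3a at 0.39. Of the 21 windows with H3K27ac reads 16 were below 0, against 56.1% of all promoters, and 3 held none in either pool. In RNA, Airn overlaps Igf2r and Copg2 overlaps Mest, and with the strand of counting not stated their reads cannot be told apart.

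Outside the 10 genes, other imprinted genes were called in RNA about as often as all genes, of which 7.7% were higher and 12.4% lower. Of 15 other paternally expressed genes tested 1 rose, 2 fell and 12 were not called, with a median log2 fold change of -0.12 against -0.01 over all genes. Together with the paternal genes of the set 3 were higher and 3 lower, and 1 was higher without UV replicate 3. The one that rose was Nnat, which encodes neuronatin, a small membrane protein. It had 28.04, 10.6 and 15.9 CPM in UV libraries and 2.28, 2.23 and 2.60 CPM in untreated libraries, and its log2 fold change was 2.93 ± 0.30 (SE, edgeR adjusted p = 2.49e-06). The UV libraries spread widely, yet the lowest was far above the highest untreated one. The Nnat window differed by 0.33 in H3K27ac, from 18 reads in the UV pool and 11 in the untreated pool.

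The 2 paternal genes that fell, Peg12 and Mkrn3, are neighbours of Ndn in its mouse cluster. Peg12, a relative of a GSK3-binding protein, had 13.7, 9.16 and 9.27 CPM in UV libraries and 24.6, 24.4 and 20.4 CPM in untreated libraries, a log2 fold change of -1.11 ± 0.20 (SE, edgeR adjusted p = 0.000533). Mkrn3, a ring finger ubiquitin ligase, had 2.17, 2.49 and 2.72 CPM in UV libraries and 4.51, 5.73 and 6.32 CPM in untreated libraries, a log2 fold change of -1.16 ± 0.29 (SE, edgeR adjusted p = 0.00777). Mkrn3 lost the call without untreated replicate 2 or 3, at adjusted p-values of 0.0582 and 0.0737 in a range of 0.00327 to 0.0737. Their H3K27ac windows hardly differed, at -0.07 for Peg12 and -0.02 for Mkrn3, whereas Rtl1 had -1.67.

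Of 17 other maternally expressed genes tested 1 rose, 2 fell and 14 were not called. With Igf2r and Grb10 included, leaving out 1 library gave 0 to 3 higher (0 without UV replicate 3, 3 without untreated replicate 1) and 0 to 2 lower (0 without UV replicate 2 or 3 or untreated replicate 2). Gnas, the stimulatory G protein alpha subunit, had 994, 808 and 870 CPM in UV libraries and 468, 560 and 466 CPM in untreated libraries, a log2 fold change of 0.84 ± 0.20 (SE, edgeR adjusted p = 0.00638). It lost the call without UV replicate 3, at 0.0598 in a range of 0.00207 to 0.0598. Ube3a, a ubiquitin ligase imprinted in neurons, had 148, 95.04 and 134 CPM in UV libraries and 215, 207 and 186 CPM in untreated libraries (log2 fold change -0.69, edgeR adjusted p = 0.0253). Osbpl5, a lipid transfer protein, had a log2 fold change of -0.66 (edgeR adjusted p = 0.0178). Ube3a lost the call under 5 and Osbpl5 under 4 of 12 alternatives, with adjusted p-values up to 0.122 and 0.198.

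Among the other genes of the IGF pathway, 2 rose, 4 fell and 8 were not called of 14 tested. Beside this, 7.7% of all genes tested were higher and 12.4% lower. With Igf2, Igf2r and Grb10 included, 3 genes of the list were higher and 4 lower. Leaving out 1 library turned this into 6 higher without untreated replicate 1 or 2, 5 higher without UV replicate 2 or untreated replicate 3, 1 lower without UV replicate 3, and 2 lower without UV replicate 2 or untreated replicate 1 or 2. All 3 Igf2bp genes, whose proteins bind Igf2 mRNA and other transcripts, fell. Igf2bp2 had 76.4, 52.9 and 51.2 CPM in UV libraries and 117, 130 and 114 CPM in untreated libraries, a log2 fold change of -0.998 (edgeR adjusted p = 0.00147). Igf2bp1 had -0.89 (0.00534) and Igf2bp3 had -0.59 (0.0459) by the same edgeR test. Igf2bp1 lost the call without UV replicate 3, at an adjusted p of 0.0503 in a range of 4e-08 to 0.0503, and Igf2bp3 lost it under 7 of 12 alternatives, in a range of 0.000403 to 0.244. Irs1, the adaptor of the insulin and IGF1 receptors, had -0.79 (edgeR adjusted p = 0.0313) and lost the call under 6, in a range of 1.12e-06 to 0.198. The 2 that rose were the secreted binding proteins Igfbp6 and Igfbp7, with log2 fold changes of 0.82 and 0.78 (edgeR adjusted p = 0.00628 and 0.00836), and both kept the call throughout. Igfbp7, Irs1 and Igf2bp3 were named after their values were seen.

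The counts of the next 3 lists stand beside 7.7% higher and 12.4% lower over all genes tested. Of 8 other genes tested in and around the Dlk1-Dio3 cluster, 3 rose, 1 fell and 4 were not called. Dync1h1, the heavy chain of cytoplasmic dynein, had a log2 fold change of 1.21, Evl, an actin regulator, had 0.63, and Begain, which was named after its values were seen, had 0.61 (edgeR adjusted p = 0.00113, 0.0147 and 0.037). Yy1, a zinc finger transcription factor, had -0.59 (edgeR adjusted p = 0.0331). Evl lost its call under 2 of 12 alternatives, Begain under 5 and Yy1 under 6, with adjusted p-values up to 0.0749, 0.17 and 0.218, while Dync1h1 kept it under all. Of 8 other genes tested around H19 and Igf2, Mrpl23 and Lsp1 rose and 6 were not called. Of 6 other genes tested among those co-expressed with Plagl1, 2 rose, none fell by edgeR or DESeq2 or at an unadjusted p under 0.05, and 4 were not called. The 2 that rose were Nnat and Gnas, already counted above among the paternal and maternal genes. With the genes of the set included, calls of higher RNA numbered 4, 3 and 4 in these 3 lists in that order, and 1 in each without UV replicate 3.

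Among factors that keep imprints, calls were near the 12.4% lower of all genes. Of 17 tested, none rose by edgeR or DESeq2 (0 also at an unadjusted p under 0.05), 2 fell and 15 were not called. With library totals alone, which lower the median of all genes, 10 were called lower, and without UV replicate 3 it was 1. Dnmt3b, a DNA methyltransferase that sets new methylation, had 2.91, 4.18 and 3.48 CPM in UV libraries and 9.12, 9.05 and 10.4 CPM in untreated libraries, a log2 fold change of -1.44 ± 0.23 (SE, edgeR adjusted p = 0.000234). Zfp57, the zinc finger protein that binds methylated imprinting control regions, had 42.5, 32.4 and 35.4 CPM in UV libraries and 55.8, 65.3 and 66.6 CPM in untreated libraries, a log2 fold change of -0.77 ± 0.18 (SE, edgeR adjusted p = 0.00502). Zfp57 lost the call without UV replicate 3, at 0.0598 in a range of 1.61e-05 to 0.0598.

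In the other lists tied to a gene of the set, a few genes were called, beside 7.7% higher and 12.4% lower over all genes. Of 17 other genes of the Notch pathway, to which Dlk1 belongs, none rose (0 also at an unadjusted p under 0.05), 2 fell and 15 were not called by edgeR. Those that fell were Numb, an inhibitor of Notch, with a log2 fold change of -0.85 (edgeR adjusted p = 0.00369), and Rbpj, the DNA-binding partner of Notch, with -0.63 (0.0404), which lost its call under 7 of 12 alternatives (adjusted p from 0.000212 to 0.251). Without UV replicate 1 the count of Notch genes called lower was 5. Of 6 other genes on the list of retrotransposon-derived genes, to which Rtl1 belongs, 5 were not called, Peg10 among them at -0.12 (edgeR adjusted p = 0.963). The 1 that fell was Mov10, an RNA helicase that restrains retrotransposons and is not itself derived from them, with -1.01 (edgeR adjusted p = 0.00111). Of 5 other MAGE genes, relatives of Ndn, 0 were called by edgeR or DESeq2 and 0 had an unadjusted p under 0.05, though without untreated replicate 2 1 MAGE gene was called higher.

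The genes whose log2 CPM ran most like that of Rtl1 over the 6 libraries were Zbtb8a, Cry2, Gtpbp2, Hist1h2bc and Fbxl19, with Pearson r of 0.9985, 0.9978, 0.9976, 0.9974 and 0.9969. All 5 were called lower after UV, and their log2 fold changes were -0.82, -1.10, -1.30, -2.52 and -1.16 by edgeR. Cry2 is a repressor of the circadian clock and Hist1h2bc a gene for histone H2B. The points share 2 groups of 3 libraries, and genes were ranked over all those tested, so r is a description.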

How the data were processed

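The read counts per gene were made by the authors and deposited unscaled, 1 file per RNA library. Per the file headers, the promoter tables hold read counts per window of 1000 bp for each pooled condition and the input, and log2 enrichment that the authors deposited. The same values came out of the reads after 16 was added to them and to the scaled input, with input scales of 0.528 (UV) and 0.657 (untreated) for FAIRE and 0.712 and 0.706 for H3K27ac. The authors' deposited comparison table gives log2 fold changes and p-values, and was used only where it is named. Upstream tools named in the submitters' processing notes are DESeq2, MACS2, TopHat and Bowtie 0.12.9, with build mm9, and the role of each is not stated in those notes. Columns with DMSO in the header were read as irradiated, because the labels' protocol gives DMSO to irradiated cells. Columns with values per condition that were not used number 6 in these tables.

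RNA counts were tested in R 4.3.3 with edgeR 4.0.16 (filterByExpr, TMM, quasi-likelihood F test, Benjamini-Hochberg over 14925 genes, threshold 0.05). CPM used TMM-scaled library sizes, except marker sums, which used library totals. The SE follows from the log2 fold change and the F statistic. The labels do not say that replicates came from separate cultures, so p-values may reflect technical spread alone. Alternatives were DESeq2 1.42.0, its size factors in edgeR, library totals, other low-count filters, the replicate number as a block, a fold limit and the fit without each library. Chromatin was analysed in Python 3.11.15 with no test: intervals are 95% exact conditional binomial. Alternatives were centring, quantile normalization, 1 read added in place of 16, pool totals without input, a threshold of 0.58 and the upper 50% by enrichment. The steps were checked on simulated data.

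The 10 genes, the lists of imprinted, cluster, IGF, Notch, imprint maintenance, retrotransposon-derived and MAGE genes, and the tests were chosen with earlier results of these data known. Named beside the 10 genes were up to 3 called genes per list by smallest p, the 5 lowest FAIRE promoters after Rtl1, the 5 genes with the highest Pearson r with Rtl1 and promoters of the Dlk1-Dio3 list. Cluster borders and the range of enrichment used beside them were set after the values were seen.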

Additional observations from a re-analysis of the deposited data

How the results depend on the processing

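Rtl1 kept its RNA call under all 12 alternatives, and over the 31 called genes checked 16 did. The 31 include the 5 genes picked for their likeness to Rtl1 over the same libraries, and all 5 kept the call. Scaling by library totals moved the median log2 fold change of all genes from -0.01 to -0.24, and with it Peg3 (-0.14), Grb10 (-0.046), Plagl1 (-0.212) and Ndn (-0.162) turned negative. Without UV replicate 1 Plagl1 (-0.20) and Ndn (-0.058) did, and leaving out 1 library at a time gave -0.20 to 0.31 for Plagl1 and -0.058 to 0.28 for Ndn. None of these was called. Of the 10 genes, 1 was called higher with library totals, 1 with no low-count filter and 0 past a log2 limit of 1, and 0 to 3 without 1 library (0 without UV replicate 3). The count of lower stayed at 1. Over all genes, leaving out 1 library gave 585 to 1941 higher and 1139 to 2849 lower calls, the log2 limit of 1 gave 270 and 801, and library totals gave 3739 lower.

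FAIRE gains over all promoters were 10 with centring, 12 with quantile normalization, 638 with 1 read added and 155 at a threshold of 0.58, and losses were 76, 27, 1279 and 3100 in that order. With 1 read added 2 of the 10 genes were FAIRE losses, the other being Igf2. H3K27ac gains were 1381 with 1 read added and 1909 at 0.58, and losses were 3479 and 2641. Of the 10 genes 1 was an H3K27ac loss with centring, 1 with quantile normalization and 1 within the upper 50% by enrichment, where Igf2 dropped out, at -0.99 and -0.82 for the first pair. Rtl1 was a loss in both assays throughout, from -3.06 to -1.63 in FAIRE.

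Deviations of same-numbered libraries had correlations of 0.155, -0.58 and 0.504. Those of differently numbered libraries ran from -0.707 (UV 1 with untreated 3) to 0.683 (UV 2 with untreated 3). Whether the replicate numbers pair the libraries cannot be told from these values. A block for the replicate number gave 1276 genes higher and 2067 lower, and Rtl1 (-1.54), Dlk1 (0.89) and Igf2 (0.75) kept their calls. Peaks within 10 kb of the promoters were not run, because the promoter tables give no positions.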

Other observations

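At IGF, matrix and imprinted genes beside this set, the H3K27ac difference and the RNA log2 fold change did not always have the same sign. Igf1r, the receptor through which IGF2 signals, had 400 H3K27ac reads in the UV pool and 695 in the untreated pool, a difference of -0.78, and an RNA log2 fold change of 0.18 (edgeR adjusted p = 0.771). Dcn, which encodes decorin, a collagen-binding proteoglycan, had 53 H3K27ac reads in the UV pool and 140 in the untreated pool, a difference of -1.18, and an RNA log2 fold change of 0.47 (edgeR adjusted p = 0.586). RNA of Igf1r and Dcn was not called, so the sign of their RNA change is not settled. Irs1, whose RNA was called lower, had 296 H3K27ac reads in the UV pool and 603 in the untreated pool, a difference of -0.996 with the same sign. Ube3a, at the border of the Ndn cluster, had more H3K27ac reads in the UV pool, 1035, than in the untreated pool, 780, a difference of 0.39, while its RNA was called lower. The RNA call was lost under 6 of 12 alternatives for Irs1 and under 5 for Ube3a. All genes of this paragraph were named after their values were seen, and the chromatin values have no replicates. What links promoter acetylation and RNA at them was not tested.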
